A study of Mus musculus with 12 samples.

Results

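The uncoupling proteins Ucp1, Ucp2 and Ucp3 were examined in immortalized murine brown adipocytes given vehicle or the pesticide chlorpyrifos (CPF). The family was taken by gene symbol, and all 3 genes had values, of 14775 genes in the expression table. RNA was sequenced from 12 libraries, 6 from cells given vehicle (DMSO) and 6 from cells given 1 pM CPF, an organophosphate insecticide that inhibits acetylcholinesterase. Both groups had been differentiated for 9 days in media with T3 and insulin, the first 2 of them also with IBMX, indomethacin and dexamethasone, and were then held for 4 h in a buffered salt solution with fatty-acid-free albumin. No adrenergic agonist is named in the treatment. The study's methods name the cells as TMCON brown preadipocytes. They describe both a wild-type FVB/N line and a line from mice with a Ucp1 luciferase and tdTomato reporter, each made from brown fat of pups a few days old with an SV40 retrovirus, and do not state which of them TMCON is. The sources used here also do not say whether the 6 replicates of a group were separate cultures, and a p-value therefore speaks only of the scatter among the sequenced libraries, part or all of which may be technical.

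Uncoupling proteins belong to the SLC25 family of carriers of the inner mitochondrial membrane. Ucp1 lets protons return to the matrix without making ATP and so turns fuel oxidation into heat. It is the defining protein of brown fat, is opened by free fatty acids and held closed by purine nucleotides, and its gene is driven by adrenergic signalling through cyclic AMP, by PPARs with the coactivator Ppargc1a, and by thyroid hormone. Ucp2 is found in many tissues and carries small dicarboxylates such as malate and aspartate out of the matrix. Ucp3 is found mainly in skeletal muscle, heart and brown fat, and its transport role is less settled.

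In the mouse assembly GRCm38 with the GENCODE M21 annotation, Ucp1 (ENSMUSG00000031710) lies on the plus strand of chromosome 8 from 83290352 to 83298452 and has 1 annotated transcript of 6 exons and 1636 bp. Ucp3 (ENSMUSG00000032942, 100472990 to 100486432) and Ucp2 (ENSMUSG00000033685, 100493337 to 100502020) are neighbours on the plus strand of chromosome 7, with 6904 bp between the end of Ucp3 and the start of Ucp2. The exons of the 11 annotated Ucp2 transcripts together cover 6989 bp and those of the 4 Ucp3 transcripts 3135 bp. The coding sequences are alike in length, at 921 bp for Ucp1 and 927 bp for Ucp2, with Ucp3 between them. In global alignments of the bases, Ucp2 and Ucp3 matched at 73.5% of aligned coding positions, Ucp1 and Ucp3 61.4%, and Ucp1 and Ucp2 59.8%.

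The closest stretches of coding sequence are shown because they bear on whether a read can be assigned to 1 member. Capitals mark the longest run of identical bases between the members compared, with 15 bases on each side. Ucp2 and Ucp3 shared at most 24 bases in a row, at coding positions 556 to 579 of Ucp2 and 553 to 576 of Ucp3, counted from the first base of the start codon.
Ucp2: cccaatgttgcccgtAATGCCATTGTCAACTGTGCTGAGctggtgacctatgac
Ucp3: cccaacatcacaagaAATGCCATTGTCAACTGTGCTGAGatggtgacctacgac
Ucp1 shared at most 17 bases in a row with either relative, in the same place in all 3 genes.
Ucp1: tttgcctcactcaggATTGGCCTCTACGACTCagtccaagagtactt
Ucp2: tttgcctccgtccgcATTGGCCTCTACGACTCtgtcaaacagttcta
Ucp3: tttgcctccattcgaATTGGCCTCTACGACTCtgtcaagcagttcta
None of the 1587 stretches of 50 bases in the Ucp1 transcript, the 7258 in Ucp2 or the 3228 in Ucp3 occurred in the transcripts of another gene. No exon of another gene overlapped the 3 genes on their own strand. Dnajb13 overlaps the end of Ucp2 on the opposite strand, and counting used strand.

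The start regions of the 3 genes are shown because the members differed in level and in how they varied. Each window holds 250 bases before the RefSeq start and 50 bases from it onward (GRCm38.p6, plus strand), at chr8:83290098-83290397 for Ucp1, chr7:100493108-100493407 for Ucp2 and chr7:100472741-100473040 for Ucp3. Capitals mark matches to the motifs searched, on both strands.
Ucp1: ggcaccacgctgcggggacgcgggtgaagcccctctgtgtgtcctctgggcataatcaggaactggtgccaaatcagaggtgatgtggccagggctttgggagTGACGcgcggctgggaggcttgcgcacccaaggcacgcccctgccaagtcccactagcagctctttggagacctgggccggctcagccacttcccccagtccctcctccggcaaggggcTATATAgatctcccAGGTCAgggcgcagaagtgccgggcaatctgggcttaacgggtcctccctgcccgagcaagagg
Ucp2: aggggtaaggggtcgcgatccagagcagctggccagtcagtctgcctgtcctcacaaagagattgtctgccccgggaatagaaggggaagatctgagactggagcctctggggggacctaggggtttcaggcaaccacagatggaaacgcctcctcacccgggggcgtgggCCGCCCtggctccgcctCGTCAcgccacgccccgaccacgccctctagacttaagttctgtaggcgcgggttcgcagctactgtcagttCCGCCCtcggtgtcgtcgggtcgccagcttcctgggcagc
Ucp3: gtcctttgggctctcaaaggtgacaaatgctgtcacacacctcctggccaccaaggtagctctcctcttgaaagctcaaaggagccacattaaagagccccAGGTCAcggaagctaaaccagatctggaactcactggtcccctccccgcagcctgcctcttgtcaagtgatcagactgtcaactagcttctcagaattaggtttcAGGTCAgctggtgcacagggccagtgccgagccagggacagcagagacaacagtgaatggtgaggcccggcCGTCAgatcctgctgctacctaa
The motifs were TATAAA and TATATA (forms of the TATA box), TGACG (a core of the cyclic AMP response element), AGGTCA (a single nuclear receptor site), GGGCGG (the GC box) and CCAAT. Counting the start base as 0, the Ucp1 window held TATATA at −28 to −23, TGACG at −147 to −143 and AGGTCA at −14 to −9. The Ucp2 window held TGACG at −62 to −58 and GGGCGG at −79 to −74 and at 10 to 15, all on the minus strand, so that they read CGTCA and CCGCCC above. The Ucp3 window held AGGTCA at −149 to −144 and −44 to −39, and TGACG on the minus strand at 27 to 31. No match overlapped another. TATATA was found in Ucp1 alone of the 3 and in 5.67% of 32851 promoters of the same length, TGACG in 20.8%, AGGTCA in 16.3% and GGGCGG in 35.7%. TATAAA (13.6% of promoters) and CCAAT (37.4%) were not in the 3 windows. CpG pairs numbered 15 in the Ucp1 window, 21 in Ucp2 and 5 in Ucp3, against a median of 7 over all promoters.

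The libraries held 7875502 to 14166615 reads on genes (median 10672437.5), and values are given as normalized counts, that is, reads divided by a size factor of the library. Vehicle replicate 2 and CPF replicate 1 stood apart from the other 10 libraries on the first principal component (29.1% of the variance), with scores of 31.5 and 33.0 against −13.7 to 6.12, and results are given with and without them where they bear on the members. Brown adipocyte markers were present, with 12 of 13 listed genes measured, and their summed level without Ucp1 was 23853 to 27156 in vehicle and 21203 to 29644 in CPF. General adipocyte markers (11 of 11 measured) summed to 57043 to 70870 in vehicle and 47064 to 80025 in CPF, with CPF replicate 1 the lowest library. Preadipocyte and fibroblast markers (14 of 16 measured) summed to 85231 to 146761 in vehicle, the highest value being vehicle replicate 2, and to 79873 to 98006 in CPF. Of 12 macrophage, 8 endothelial and 12 muscle markers, 3, 1 and 4 had values. Ptprc, Adgre1, Pecam1, Ckm, Myh1, Myog and Myod1 were not among the genes analysed here, and the muscle sum (3541 to 8542) was nearly all Mb, which brown fat also makes.

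Ucp1 was lower in CPF than in vehicle libraries on average, but the groups overlapped and the difference did not pass the test over all genes. The normalized counts of Ucp1 in vehicle replicates 1 to 6 were 1881, 5204, 1925, 2690, 1821 and 3580, with a median of 2307. In CPF replicates 1 to 6 they were 1238, 2072, 1565, 1241, 1565 and 1877, with a median of 1565. Vehicle replicates 2, 4 and 6 lay above every CPF library, and CPF replicates 1, 3, 4 and 5 lay below every vehicle library, while the other 5 libraries lay in the shared range. The mean was 2850 ± 1338 (SD, n = 6) in vehicle and 1593 ± 335 (SD, n = 6) in CPF. On the log2(normalized count + 1) scale the difference was −0.75 (SE 0.25), a ratio of 0.595 with a 95% interval of 0.405 to 0.873 (limma, unadjusted p = 0.0120, Benjamini-Hochberg adjusted p = 0.611). None of the 13531 genes tested passed this test (0%), and before adjustment p was under 0.05 for 375 genes higher in CPF (2.77%) and for 615 lower in CPF (4.55%), Ucp1 among the latter. The groups overlapped for all 3 members, and they did not overlap for 63 of the tested genes (0.466%). On reads recovered from the table, the adjusted p of Ucp1 was 0.591 with edgeR, which also called 0% of its genes (before adjustment, 389 higher and 705 lower genes had p under 0.05), and 0.325 with DESeq2, which called 4 other genes (0.0271%). In bulk RNA, fewer cells that make a transcript and less transcript per cell cannot be told apart.

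**Figure D1:**
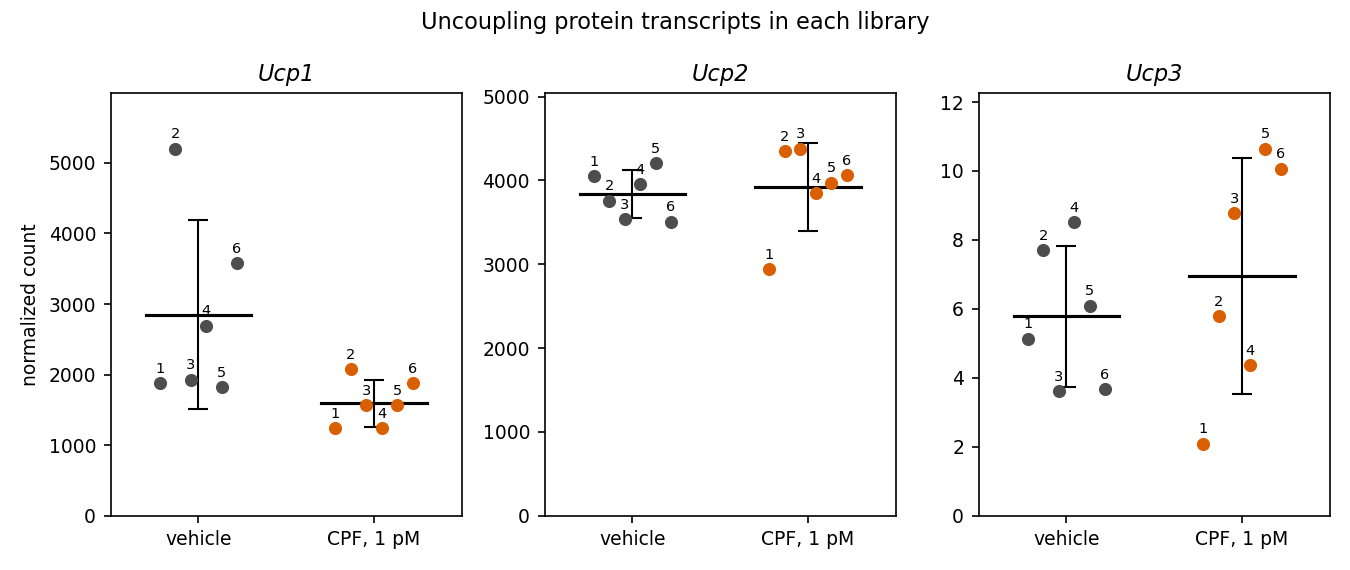
Normalized counts of Ucp1, Ucp2 and Ucp3 in each library, with the replicate number beside each point, the group mean as a long line and its SD (n = 6) as an error bar. The y axes are linear, start at 0 and differ between panels. Ucp1 spread from 1821 to 5204 in vehicle and from 1238 to 2072 in CPF, Ucp2 stood between 3508 and 4380 in all libraries but CPF replicate 1, and Ucp3 did not exceed 10.6.

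When the Ucp1 values themselves were permuted over every split of the libraries into 6 and 6 (exact, two-sided), p was 0.0173 for the difference of −1257 normalized counts. Leaving out CPF replicate 1 or CPF replicate 4 raised this exact p to 0.0606, although the differences then were −1186 and −1187. Leaving out vehicle replicate 2 reduced the difference to −786 (exact p = 0.0260). Without vehicle replicate 2 and CPF replicate 1 it was −715 (exact p = 0.0635), and the log2 difference was −0.48 (SE 0.22, limma adjusted p = 0.369). Vehicle replicate 2, with the highest Ucp1, also had the highest summed fibroblast markers, and CPF replicate 1, with the lowest Ucp1, had the lowest summed adipocyte markers. But CPF replicate 1 also had the highest summed fibroblast markers of the CPF group (98006), so high fibroblast markers went with both the highest and the lowest Ucp1. Over the whole lists, log2 differences were negative for 13 of the 14 preadipocyte and fibroblast markers (median −0.17, median of the summed level 96093 in vehicle and 87640 in CPF). They were positive for 10 of the 11 general adipocyte markers (median 0.14, summed 65123 and 75552), while 50.4% of all tested genes were negative. Of the 12 brown adipocyte markers, Ucp1 among them, 10 were negative (median −0.13). Their summed level without Ucp1 had a median of 24594 in vehicle and 27771 in CPF. Only Pdk4 and Kcnk3 were positive, and Pdk4, with the highest counts of the list, had a mean of 9819 in vehicle and 12027 in CPF. The higher sum is thus no joint rise of these markers. None of the markers in these lists passed the limma test, and the part of the other markers in the Ucp1 difference was not tested.

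Ucp2 had nearly the same mean in both groups. Its normalized counts in vehicle replicates 1 to 6 were 4051, 3756, 3535, 3951, 4208 and 3508 (median 3854). In CPF replicates 1 to 6 they were 2940, 4351, 4380, 3848, 3970 and 4064 (median 4017). CPF replicate 1 was the lowest of the 12 libraries, CPF replicates 2 and 3 were the highest, and the other CPF libraries lay within the vehicle range. The means were 3835 ± 284 in vehicle and 3925 ± 526 in CPF (SD, n = 6 each). The log2 difference was 0.025 (SE 0.089, limma adjusted p = 0.962), with a 95% interval of the ratio from 0.893 to 1.16, and the exact permutation p was 0.732. Without CPF replicate 1 the log2 difference was 0.11 (SE 0.059, limma adjusted p = 0.383).

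Ucp3 was barely read. It had 3 to 10 reads in a vehicle library and 2 to 11 reads in a CPF library. Its normalized counts in vehicle replicates 1 to 6 were 5.13, 7.70, 3.60, 8.51, 6.09 and 3.67, and in CPF replicates 1 to 6 they were 2.09, 5.79, 8.77, 4.37, 10.6 and 10.1. CPF replicate 1 was again the lowest library, CPF replicates 3, 5 and 6 lay above every vehicle library, and the groups overlapped. The means of 5.78 ± 2.04 and 6.96 ± 3.42 (SD, n = 6 each) were under the mean of 10 set for testing. With no such minimum the log2 difference was 0.15 (SE 0.35, limma adjusted p = 0.949), with a 95% interval of the ratio from 0.661 to 1.85, and the exact permutation p was 0.478.

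Levels of different genes can be set side by side only per length, and the order of Ucp1 and Ucp2 depended on which length was used. In normalized counts per kb of all annotated exons, the mean level in vehicle was 1742 ± 818 for Ucp1, 549 ± 40.6 for Ucp2 and 1.84 ± 0.652 for Ucp3 (SD, n = 6). In CPF it was 974 ± 205, 562 ± 75.3 and 2.22 ± 1.09 in the same order. On this scale Ucp1 ranked 206 of 14761 genes in vehicle and 446 in CPF, Ucp2 ranked 931 and 916, and Ucp3 ranked 14291 and 14089. The mean log2 ratio of Ucp1 to Ucp2 per kb of all exons within vehicle libraries was 1.55 ± 0.67, or 2.94-fold, and was above 0 in 6 of 6 libraries. Per kb of the longest transcript the log2 ratio was 0.74 in vehicle, again above 0 in 6 of 6. Each had an exact sign-flip p of 0.03125, the smallest that 6 libraries can give.

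Per kb of coding sequence, where the members differ little in length, the order turned. The log2 ratio of Ucp1 to Ucp2 was then −0.53 in vehicle (exact sign-flip p = 0.125, above 0 in 2 of 6 libraries) and −1.31 in CPF (exact sign-flip p = 0.03125, above 0 in 0 of 6). The union of Ucp2 exons counts every base of its 11 annotated transcripts, and how many of these bases these cells transcribe cannot be read from gene totals. Ucp3 was lowest under each of the 3 lengths. Per kb of all exons in vehicle, Ucp1 was above Ucp3 by a log2 ratio of 9.84 and Ucp2 above Ucp3 by 8.29, each in 6 of 6 libraries with an exact sign-flip p of 0.03125.

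**Figure D2:**
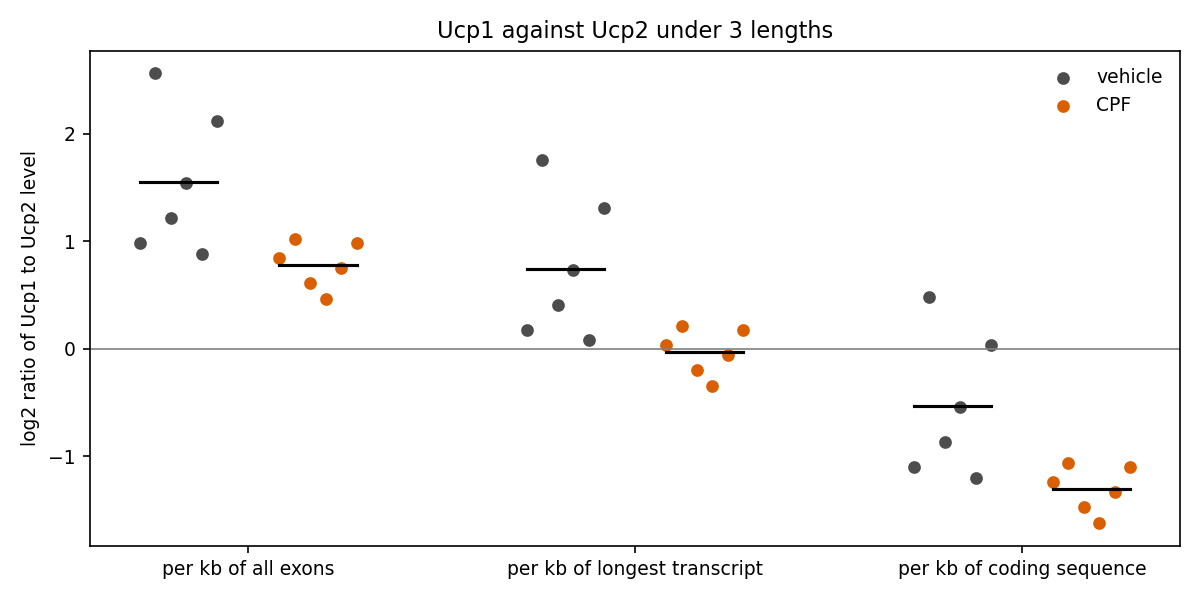
Log2 ratio of the Ucp1 to the Ucp2 level within each library, with levels per kb of all annotated exons, of the longest transcript or of the coding sequence. Points are libraries, short lines are group means, and the grey line at 0 marks equal levels. The vehicle mean went from 1.55 to 0.74 and −0.53 across the 3 lengths, while the gap between vehicle and CPF was the same under each.

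Within the reads of the family, Ucp1 took a smaller share in CPF libraries and Ucp2 a larger one. These shares are of reads, not of transcripts, and 10 of the 12 libraries had more reads on Ucp2 than on Ucp1, the exceptions being vehicle replicates 2 and 6. Ucp1 took 31.7, 58.0, 35.2, 40.5, 30.2 and 50.5% of the Ucp reads in vehicle replicates 1 to 6. It took 29.6, 32.2, 26.3, 24.4, 28.2 and 31.5% in CPF replicates 1 to 6. Vehicle replicates 2, 3, 4 and 6 lay above every CPF library, and vehicle replicates 1 and 5 lay within the CPF range. A library held 4005 to 7811 Ucp reads, and the 95% Wilson interval of the Ucp1 share ran, for example, from 56.9 to 59.2% in vehicle replicate 2 and from 23.4 to 25.4% in CPF replicate 4. These intervals cover counting error only, since reads are not independent molecules.

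The mean Ucp1 share was 41.0 ± 11.1% in vehicle and 28.7 ± 3.04% in CPF (SD, n = 6 each), a difference of −12.3 percentage points (two-sided exact permutation p = 0.0108). The Ucp2 share was 58.9 ± 11.1% and 71.2 ± 3.04% (exact permutation p = 0.0108), which is nearly the mirror of the same reads and no second result. Ucp3 took 0.0865 ± 0.0267% and 0.122 ± 0.0553% (exact permutation p = 0.177). In CPF replicate 1, with 2 reads of Ucp3, the 95% Wilson interval of its share was 0.0137 to 0.182%. With each library left out in turn the difference in Ucp1 share ran from −14.5 to −8.89 points (exact permutation p from 0.00433 to 0.0433), the smallest difference being that without vehicle replicate 2. Without vehicle replicate 2 and CPF replicate 1 it was −9.07 points (exact permutation p = 0.0397).

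**Figure D3:**
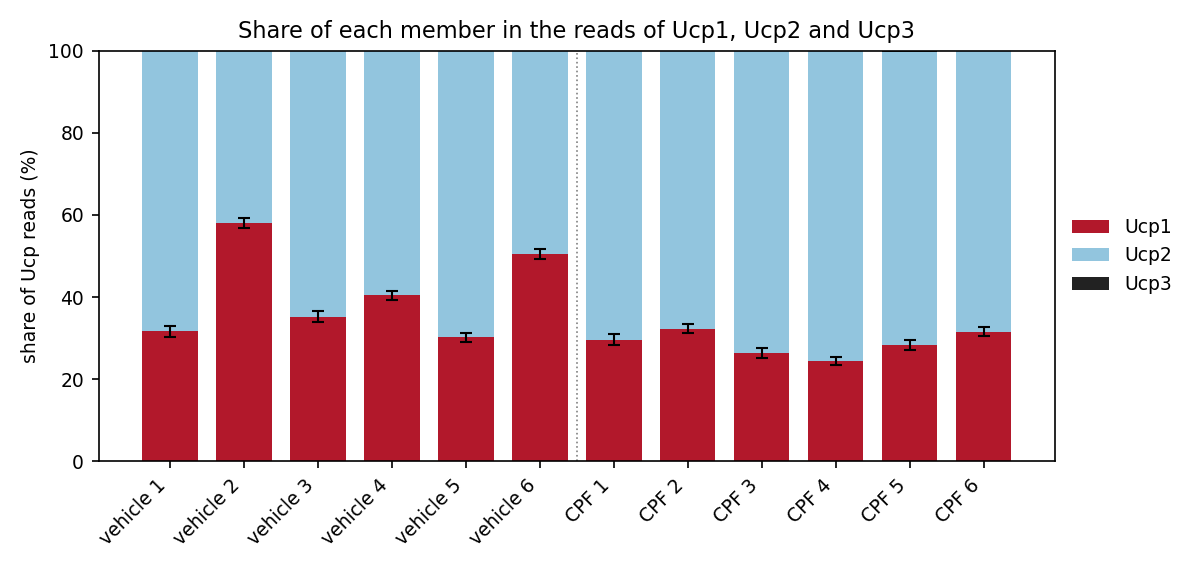
Share of the reads of Ucp1, Ucp2 and Ucp3 that fell on each member, 1 stacked bar per library from 0 to 100%. Error bars are 95% Wilson intervals of the Ucp1 share. Ucp1 took 24.4 to 32.2% in CPF and 30.2 to 58.0% in vehicle, and the Ucp3 share is too small to be seen.

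The difference between the fold changes of the members was tested through the ratio of the members within each library, in which the size factor cancels. The log2 ratio of Ucp1 to Ucp2 in normalized counts was −0.54 ± 0.67 in vehicle and −1.32 ± 0.22 in CPF (SD, n = 6 each). The groups overlapped, with vehicle replicates 1 and 5 (−1.11 and −1.21) within the CPF range of −1.63 to −1.07. On average the ratio was lower by 0.77 in CPF (difference −0.77, exact permutation p = 0.0108), beside an SD of 0.67 in vehicle. With 1 library left out in turn that difference ran from −0.91 to −0.57 (exact permutation p from 0.00433 to 0.0390), and without both libraries that stood apart it was −0.59 (exact permutation p = 0.0397). The ratio of Ucp1 to Ucp3 differed by −0.90 (exact permutation p = 0.0584), and that of Ucp2 to Ucp3 by −0.12 (exact permutation p = 0.732). In all, 12 comparisons of CPF with vehicle were made on the counts, shares, ratios and spread of the members. Their exact p-values are not adjusted for that number, and the count, share and ratio tests of Ucp1 rest on the same reads.

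**Figure D4:**
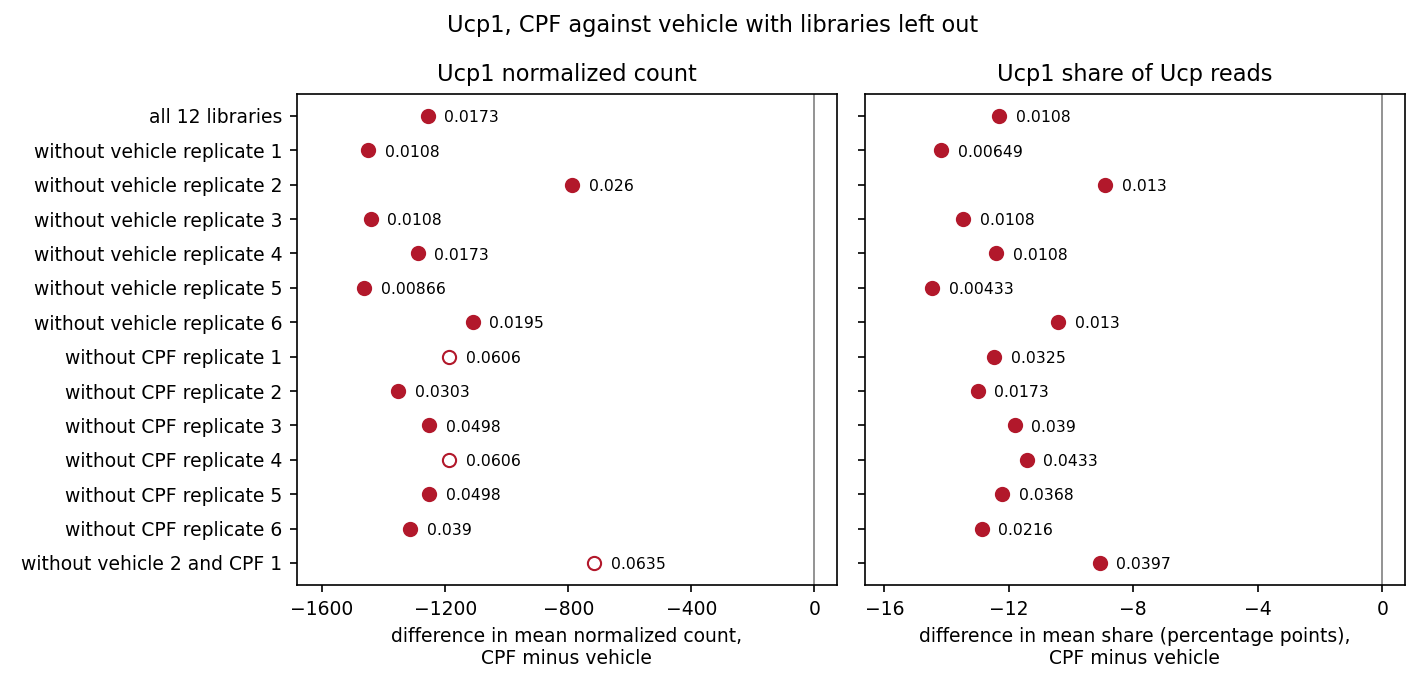
Difference between CPF and vehicle in the mean Ucp1 normalized count (left) and in the mean Ucp1 share of Ucp reads (right) with all libraries, with each library left out, and without vehicle replicate 2 and CPF replicate 1. Numbers are two-sided exact permutation p-values and filled points are those under 0.05. All differences lie below 0, the count difference between −1463 and −715 and the share difference between −14.5 and −8.89 points.

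The members differed in how far libraries of 1 group spread. The coefficient of variation of the normalized count in vehicle was 46.9% for Ucp1, 7.40% for Ucp2 and 35.3% for Ucp3. In CPF it was 21.1, 13.4 and 49.1% in the same order. The highest Ucp1 library was 2.86-fold the lowest in vehicle and 1.67-fold in CPF, against 1.20-fold and 1.49-fold for Ucp2. Only 2.70% of tested genes had a larger SD of log2 values in vehicle than Ucp1 (SD 0.61), while 20.9% did in CPF (SD 0.30). For Ucp2 the shares of genes with a larger SD were 74.6% in vehicle and 37.8% in CPF.

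Leaving out vehicle replicate 2 lowered the SD of Ucp1 in vehicle to 0.42 on the log2 scale, which 6.63% of tested genes exceeded. Leaving out CPF replicate 1 lowered the SD of Ucp2 in CPF from 0.21 to 0.082. Against the spread that read counting alone gives, the variance over its expectation (chi-square per degree of freedom) was 540 in vehicle and 78.2 in CPF for Ucp1, and 21.2 and 68.1 for Ucp2. For Ucp3 it was 0.713 and 1.77, so its spread was near that of counting. The mean absolute deviation of log2 values from the group median was 0.22 in CPF against 0.49 in vehicle for Ucp1 (exact permutation p = 0.147), 0.13 against 0.089 for Ucp2 (p = 0.768) and 0.58 against 0.36 for Ucp3 (p = 0.305), so no difference in spread was shown.

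**Figure D5:**
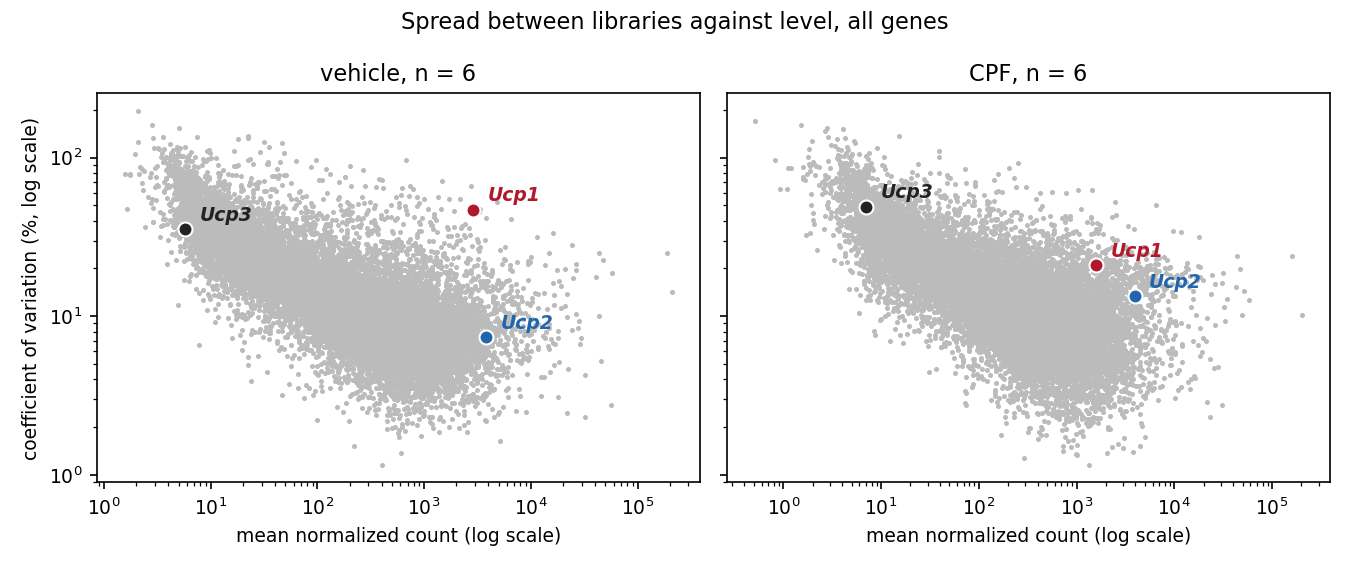
Coefficient of variation between the 6 libraries of a group against the mean normalized count, both on log axes, for all genes (grey) and the 3 members, with vehicle on the left and CPF on the right. In vehicle Ucp1 lies far above most genes of its level at 46.9%, and Ucp2 lies among them at 7.40%. In CPF they are at 21.1% and 13.4%.

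The members were also compared in how they varied across libraries. Over the 12 libraries the correlation of log2 values was r = 0.025 for Ucp1 and Ucp2 (permutation p = 0.938, rho = −0.13, permutation p = 0.683) and r = 0.20 for Ucp1 and Ucp3 (permutation p = 0.536, rho = 0.035, permutation p = 0.922). Without the 2 libraries farthest from the median these were 0.45 and 0.44. Within groups, Ucp1 and Ucp2 had r = −0.43 in vehicle and 0.70 in CPF (exact permutation p = 0.350 and 0.0972, n = 6 each), and Ucp1 and Ucp3 had r = 0.31 and 0.61 (exact permutation p = 0.542 and 0.201). Ucp2 and Ucp3, the chromosome 7 neighbours, had r = 0.75 (permutation p = 0.00442, adjusted over the 3 pairs 0.0133) and rho = 0.64 (permutation p = 0.0301, adjusted 0.0904). Without the 2 farthest libraries r fell to 0.40, so its size depended on those libraries. Within vehicle r was 0.60 (exact permutation p = 0.232, and r = 0.52 without the 2 farthest libraries). Within CPF r was 0.79 (exact permutation p = 0.0639, and r = 0.038 without the 2 farthest libraries).

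The genes with the pattern most like each member were taken by the highest Pearson r of log2 values over the 12 libraries among tested genes. For Ucp1 they were Tmem182, a transmembrane protein (r = 0.96), Atp10a, a phospholipid flippase (0.95), Idi1, an enzyme of isoprenoid and cholesterol synthesis (0.94), Epha7, an ephrin receptor (0.94), and Armcx3, a protein of the outer mitochondrial membrane (0.93). Without vehicle replicate 2 these 5 values were 0.88 to 0.95. Within vehicle they were 0.93 to 0.99, and within CPF 0.46 to 0.82. All 5 genes were, like Ucp1, lower on average in CPF, with log2 differences from −0.83 to −0.22. The Ucp1 difference between the groups enters the r by which they were picked, so this direction is no separate result. For Ucp2 they were Dlst, a subunit of 2-oxoglutarate dehydrogenase (0.95), Mamld1 (0.95), Zbtb16, a transcription factor (0.94), and Atp5a1, the alpha subunit of ATP synthase (0.94). Without CPF replicate 1 these 4 values were 0.86 to 0.93. For Ucp3 they were Galnt18 (0.89), Ffar2, a receptor for short-chain fatty acids (0.87), Abcb9 (0.86), Tshr, the thyrotropin receptor (0.85), and Ptov1 (0.85), and without CPF replicate 1 they were 0.74 to 0.81. None of these genes passed the limma test between CPF and vehicle. As the best of 13531 genes, such values are high by choice and are given as a description.

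Other carriers of the SLC25 family were compared in the same way. Of 6 listed genes 5 were tested, 0 passed (against 0% of all genes), and 0 had an unadjusted p under 0.05. Their log2 differences ran from −0.03 to 0.12, with a median of 0.05 beside −0.0015 over all tested genes. The brain carriers Slc25a27 (Ucp4) and Slc25a14 (Ucp5) stood at 38.93 ± 14.5 and 52.7 ± 7.95 normalized counts in vehicle and 40.5 ± 12.9 and 51.5 ± 7.84 in CPF (SD, n = 6). Slc25a30, a close homologue of Slc25a14, had 220 ± 43.1 and 227 ± 38.7. The adenine nucleotide carriers Slc25a4 and Slc25a5, which exchange ADP and ATP and also conduct protons, had 4977 ± 330 and 5084 ± 465 in vehicle and 5428 ± 638 and 5225 ± 1081 in CPF.

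Among regulators and effectors of brown fat, 28 of 30 listed genes were tested and 0 passed. At an unadjusted p under 0.05, 0 were higher and 4 were lower, beside 2.77% and 4.55% of all tested genes. Log2 differences were positive for 12 and negative for 16 (57.1%, beside 50.4% of all tested genes), with a median of −0.03. The 4 lower genes were Zfp516, Otop1, Lhx8 and Zic1, and Lhx8 and Zic1 are named after their values were seen. Otop1, a proton channel of brown fat, had 41.0 to 108 normalized counts in vehicle (highest in replicate 2) and 23.0 to 51.2 in CPF, a log2 difference of −0.74 (SE 0.22, limma adjusted p = 0.569). Zfp516, a zinc finger activator of the Ucp1 gene, had 698 ± 28.6 and 637 ± 39.8 (log2 difference −0.13, limma adjusted p = 0.651).

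The other genes named from this list had no unadjusted p under 0.05. Ppargc1a, the coactivator, had 923.5 ± 172 normalized counts in vehicle and 793 ± 219 in CPF (SD, n = 6, log2 difference −0.26, SE 0.21). Prdm16, which sets brown fat identity, had 277 ± 25.4 and 283 ± 78.1, and Cidea, a lipid droplet protein of brown fat, 8047 ± 420 and 7964 ± 1594. CPF replicate 1 was the lowest CPF library for Ppargc1a, Prdm16 and Cidea, at 0.477-fold, 0.472-fold and 0.586-fold of their CPF medians. Elovl3, a fatty acid elongase, had 20.0 ± 8.05 and 15.1 ± 5.05 (log2 difference −0.37, SE 0.26), and Cox8b, a cytochrome c oxidase subunit, 289 ± 50.3 and 276 ± 66.2. In vehicle replicate 2, where Ucp1 was 2.26-fold the vehicle median, Elovl3 was 1.99-fold, Lhx8 1.80-fold and Otop1 1.70-fold, but Cidea was 0.960-fold and Prdm16 0.826-fold.

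Of 18 PPAR target genes of fatty acid oxidation, 16 were tested, 0 passed, and 8 were positive and 8 negative (median 0.0064). Pdk4, the kinase that turns off pyruvate dehydrogenase, was higher at an unadjusted p under 0.05, with 8172 to 11027 normalized counts in vehicle and 10995 to 12688 in CPF (log2 difference 0.30, SE 0.08, limma adjusted p = 0.569). Cpt1a, the liver form of the carnitine palmitoyltransferase that admits fatty acids to mitochondria, was lower at that level, with 381 ± 74.6 and 300 ± 36.0 (SD, n = 6, limma adjusted p = 0.611). Its muscle and brown fat form Cpt1b had 43.3 ± 9.28 and 34.3 ± 5.03, the carnitine carrier Slc25a20 660 ± 70.9 and 721 ± 182, and Angptl4, an inhibitor of lipoprotein lipase, 4620 ± 369 and 5205 ± 998.

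The genes next to the members in the genome were also compared. Of 12 neighbours 8 were tested, 0 passed, 0 had an unadjusted p under 0.05, and 3 were positive and 5 negative (median −0.03). Beside Ucp1, the log2 differences were −0.15 (SE 0.16) for Rnf150, −0.23 (SE 0.24) for Tbc1d9 and −0.03 (SE 0.10) for Elmod2. In vehicle replicate 2, with the highest Ucp1, these 3 genes stood at 1.46-fold, 1.85-fold and 1.30-fold of their vehicle medians. In CPF replicate 1, with the lowest Ucp1 (0.791-fold of its CPF median), they stood at 1.77-fold, 2.08-fold and 1.14-fold of their CPF medians. They were thus raised in both libraries, while Ucp1 was raised in only 1 of them. Beside Ucp2 and Ucp3, P4ha3, Ppme1, C2cd3, Coa4 and Mrpl48 had log2 differences from −0.21 to 0.29.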

How the data were processed

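The authors ran FastQC, trimmed reads with Trimmomatic, aligned them with HISAT2 to GRCm38 (Ensembl) and counted them per gene over exons with htseq-count in the reverse-stranded mode, from a directional library kit. They then normalized the counts with DESeq2, with versions not given in the sources used here. The deposited signal values are gene counts divided by the size factor of the library. Whole reads were recovered from them for 100% of values in each library (tolerance 0.01 read), so the depth of each library is known. The authors' averages, fold changes and p-values, their gene-list sheets and 12 columns of per-library ratios were not used.

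limma 3.58.1 in R 4.3.3 (trend and robust) was run on log2(normalized count + 1) for genes with a mean of at least 10, with Benjamini-Hochberg adjustment over all tested genes and an adjusted p threshold of 0.05. A fold change on this scale understates the change of low genes. Alternatives were count tests on the recovered reads with edgeR 4.0.16 or DESeq2 1.42.0, TMM scaling, other pseudocounts and minima, a replicate block and leaving out libraries. Single values were tested with exact permutation or sign-flip tests in scipy 1.17.1, correlations with 100000 permutations. Fitting was tested on simulated data. Exon lengths came from GENCODE M21 (14761 of 14775 genes), promoters from RefSeq, where 3 of 3 members matched. The members, the gene lists and the named genes (all members, the listed SLC25 carriers, listed examples of the other lists, and the 5 genes most like each member, of which 1 is not reported here) were chosen with earlier results of these data known. The study's methods give no rule for which genes the table keeps.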

Additional observations from a re-analysis of the deposited data

Results flagged for a closer look

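Of 18 groups of 6 library values checked (normalized counts, shares and ratios of the members in each treatment), 1 had a library far from the rest. Ucp2 in CPF replicate 1 had 2940 normalized counts, and the next library had 3848. That gap is 0.630 of the range of the group, just over the Dixon critical value for 6 samples. Chance alone flags about 1 in 20 groups. The same library had 0.586-fold of the CPF median for Cidea and the lowest summed general adipocyte markers, and the part of either in the Ucp2 value was not tested.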

How the results depend on the processing

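Values not given here stayed on their side of the threshold or, where no test was run, moved by less than the spread between libraries. The latter are the level ratios with 1 library left out, since 5 libraries cannot give a sign-flip p under 0.0625, and the untested Ucp3 log2 difference, which was −0.09 within replicates 1 to 3 beside 0.15 over all. The difference in Ucp1 count was −715 (exact p = 0.0635) without both libraries that stood apart. The ratio of Ucp1 to Ucp3 passed 0.05 without both (−1.04, exact p = 0.0317) and with 1 added to each value (−0.90, exact p = 0.0325). The Ucp2 spread turned to −0.028 without both, and the level ratio of Ucp1 to Ucp2 to −0.53 with coding length, an alternative added after seeing the data; the cause of the last is the length itself, the other causes were not tested. Genes called numbered 0 in the limma fit, 4 with DESeq2, 22 within replicates 4 to 6 and 54 without both libraries. With each library left out in turn, the log2 difference ran from −0.86 to −0.55 for Ucp1 and from −0.0092 to 0.11 for Ucp2, negative without vehicle replicate 6, CPF replicate 2 or CPF replicate 3. The count difference ran from −1463 to −786 for Ucp1 and from −0.375 to 287 for Ucp2, negative without CPF replicate 3. The Ucp2 spread ran from −0.025 (without CPF replicate 1) to 0.062. The ratio of Ucp1 to Ucp3 ran from −1.14 to −0.69, past 0.05 without CPF replicate 1 or vehicle replicate 5, and that of Ucp2 to Ucp3 from −0.35 to 0.036, positive without CPF replicate 5 or 6. Genes called ran from 0 to 11, the 11 being without CPF replicate 1. Ucp3, under the mean of 10, gave no limma value under TMM scaling, a minimum of 50, other pseudocounts or the block.

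No label ties same-numbered libraries together, and their deviations from the group means correlated at −0.21, 0.030, 0.11, 0.23, 0.26 and 0.16 for numbers 1 to 6, so they were not treated as pairs. Only number 6 correlated best with its own number. Ucp1 was lower in CPF in 6 of 6 same-numbered pairs. With the replicate block limma called 0 genes, and Ucp1 had −0.75 (SE 0.14, unadjusted p = 0.000445, adjusted p = 0.494). The exact sign-flip form over the 6 numbers gave p = 0.03125 for the Ucp1 count and share. Depth limits Ucp3, with at most 11 reads in a library, while Ucp1 had at least 1186 and Ucp2 at least 2817.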
